A study of Macaca mulatta with 48 samples.

Results

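The cells described here are the interstitial mesenchymal cells of the testis of rhesus monkeys (Macaca mulatta) before puberty. They were picked cell by cell from droplet single-cell RNA sequencing, in which every captured transcript carries a molecular identifier (UMI). A barcode was taken as a member when at least 1 UMI was found for 3 or more of the 4 genes IGF2, C7, DCN and COL1A1, and no UMI for AMH, EMCN, VWF or MYH11, which mark Sertoli, endothelial and smooth muscle cells. Before this gate, barcodes needed 300 or more detected genes, no more than 30000 UMIs, and a mitochondrial share of up to 3%. In the prepubertal libraries 1129 of 38918 such barcodes (2.90%) were members, out of 112150 barcodes in the 12 libraries of the series.

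The study took testes at 3 ages, with 2 monkeys each: prepubertal (1 year), adult (6 years) and aged (22 years). Each monkey gave both testes, the first out of the breeding season and the other within it, so that each age has 2 libraries per season from the same 2 animals. Every breeding library thus came from a monkey with 1 testis already removed. Season, date of collection and this earlier surgery cannot be told apart, and the paper names compensation after the surgery among its limits. No strain, drug or genetic change is named for any group. An animal, and not a cell, is the replicate throughout, and with 2 animals per age the measured spread is that between 2 individuals.

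Interstitial mesenchymal cells fill the space between the seminiferous cords. They lay down fibrillar collagen and proteoglycans, answer to Hedgehog ligand from Sertoli cells and to platelet-derived growth factor, and are regarded as the pool from which steroidogenic Leydig cells and peritubular cells arise. IGF2 is an imprinted growth factor gene of fetal and juvenile tissue, C7 encodes a late complement component, DCN the small proteoglycan decorin, and COL1A1 a chain of type I collagen.

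The prepubertal libraries held 7210 to 11338 barcodes after the filters. The non-breeding library gave 234 members in animal 1 and 207 in animal 2, and the breeding library 363 and 325. Their summed UMIs were 388415, 325386, 398519 and 363811 in that order, which is the depth behind the levels given over all members of a library. Single clusters and other sets of cells had other depths. Cells of the same gate in older testes held 65366 to 1204888 UMIs in the libraries that gave any. The endothelial cells of non-breeding animal 2 described below held 15001 UMIs. Levels are in CPM (counts-per-million), a gene's UMIs scaled to the total UMIs of a library's members, and the 4 values given for a gene are always non-breeding animal 1, non-breeding animal 2, breeding animal 1 and breeding animal 2. CPM was not divided by gene length, and so levels of different genes are not ranked.

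Depth and spermatid RNA touch what follows. Members were shallow, with medians of 1410, 1540, 963 and 962 UMIs per cell against 2744 to 3285 in the other cells of the same libraries. In the non-breeding library of animal 1, 76 of the 234 members carried a UMI of the spermatid genes PRM1, PRM2 or TNP1, whose summed level was 265.2 CPM in its members and 689.1 CPM in its other cells; no member of the other 3 libraries had such a UMI. Results that rest on that library were also computed without those cells, and 6 members called as doublets, 41 whose barcode sequence also occurs in another library and 22 that clustered with cells of older testes were each left out in turn as well.

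The gate genes are given as a description only, since they chose the cells. IGF2 stood at 6552, 4226, 6218 and 4107 CPM in the members, while the other cells of the 4 libraries ranged from 229 to 661 CPM. C7 stood at 1141, 1088, 1709 and 1789 CPM. DCN was at 4070, 2858, 4999 and 2878 CPM, higher in animal 1 than in animal 2 in both seasons, and COL1A1 at 1547, 1417, 1516 and 1124 CPM. On the macaque assembly Mmul_10, RefSeq places IGF2 at chr14:2192527-2219265 on the minus strand, C7 at chr6:40770204-40857197 on the plus strand, DCN at chr11:90914795-90952424 on the minus strand and COL1A1 at chr16:46588741-46606662 on the plus strand.

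The gate leaned mostly on AMH, the Sertoli cell hormone that is abundant before puberty. Of 7645 barcodes with 3 or 4 of the genes, 5655 (74.0%) were removed for an AMH UMI and 861 for one of the other excluding genes. All 4 genes were seen in 570 members and exactly 3 in 559, and 295 barcodes with 2 of the 4 lay just outside. TCF21 in the non-breeding library of animal 1 was 336.4 CPM in cells with all 4 genes, 201.8 CPM with 3, 142.6 CPM with 2, and 108.2 CPM in barcodes with at least 3 that also held AMH. Across the 4 libraries TCF21 was lower in cells with 2 genes (72.3 to 216.3 CPM) than in cells with 3 (182.4 to 354 CPM) of the same library. Not all stromal genes did so in breeding animal 2. With 2 and with 3 genes, PDGFRA was at 1366 and 1096 CPM there, NR2F2 at 573 and 518.5 CPM and DLK1 at 546.4 and 504.9 CPM. COL1A2 (419.8 and 554.5 CPM) and COL3A1 (353.1 and 405.8 CPM) were lower with 2. In the other libraries all of these were lower with 2. INHA, a Sertoli cell hormone gene, reached 852.1 to 941.2 CPM only in the barcodes with AMH, and 159.9 to 272.3 CPM in those with 2 genes.

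Mesenchymal markers that the gate did not use were mostly higher in the members, while markers of several other cell types did not set them apart from the rest. The mesenchymal genes PDGFRA, TCF21, LUM, COL1A2, COL3A1, FBLN1, LAMA2 and NR2F2 summed to 4434 to 4951 CPM in the members and 936.3 to 1188 CPM in the other cells, and 6 of the 8 were higher in the members of every library. LUM was absent from the members of non-breeding animal 2, and FBLN1 was lower in members than in other cells of animal 2. Sertoli markers summed to 583 to 870 CPM against 3331 to 4044 CPM in the other cells, so that they were not absent from the members. Steroidogenic Leydig markers were at 83 to 206 CPM against 278 to 375 CPM, with HSD3B1 at 0. Peritubular markers were at 166 to 222.6 CPM against 112.1 to 216.5 CPM in the other cells, macrophage markers at 9.22 to 67.8 CPM against 16.5 to 33.9 CPM, and endothelial markers at 21.5 to 52.2 CPM against 9.68 to 57.0 CPM, so that for these 3 lists members and other cells overlapped. T and NK markers were at 18.4 to 30.9 CPM against 56.3 to 61.7 CPM, and pericyte markers at 38.5 to 108.1 CPM against 98.6 to 127 CPM. Germ cell markers were at 112.7 to 476.3 CPM against 130.8 to 929.5 CPM, with 2 of 10 genes higher in members than in other cells of every library, and erythroid markers at 2.51 to 353.4 CPM against 45.5 to 437.4 CPM. The smooth muscle gene DES, the pericyte gene CSPG4, the germ cell gene DAZL and the erythroid gene ALAS2 were at 0, and a count of 0 in 1476131 UMIs allows up to 2.03 CPM. How far free RNA carried these signals was not tested.

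Among genes with a UMI in at least 20% of the members of every library, those with the highest ratio of members to other cells were ranked, apart from the gate, and genes found in fewer cells were not. TCF21, a transcription factor of mesenchymal progenitors in several organs, led with 278.1, 230.5, 358.8 and 263.9 CPM and a mean ratio of 16.15. DPT (dermatopontin, a matrix protein that binds decorin) followed at 306.4, 295, 461.7 and 316.1 CPM with a ratio of 14.91. All 20 leading genes had ratios of 12.06 or more, and they included the collagen genes COL3A1, COL6A2 and COL1A2, the laminin chain LAMA2, the matrix inhibitor of calcification MGP, the TGF beta binding protein LTBP4 and the complement protease C1S. The same list also held IL1RAPL2 at 1146, 1346, 2364 and 2073 CPM, FRMPD4 at 551, 749.9, 1297 and 1281 CPM, LRP1B, SGCZ, KCNJ3 and SPOCK3.

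**Figure D1:**
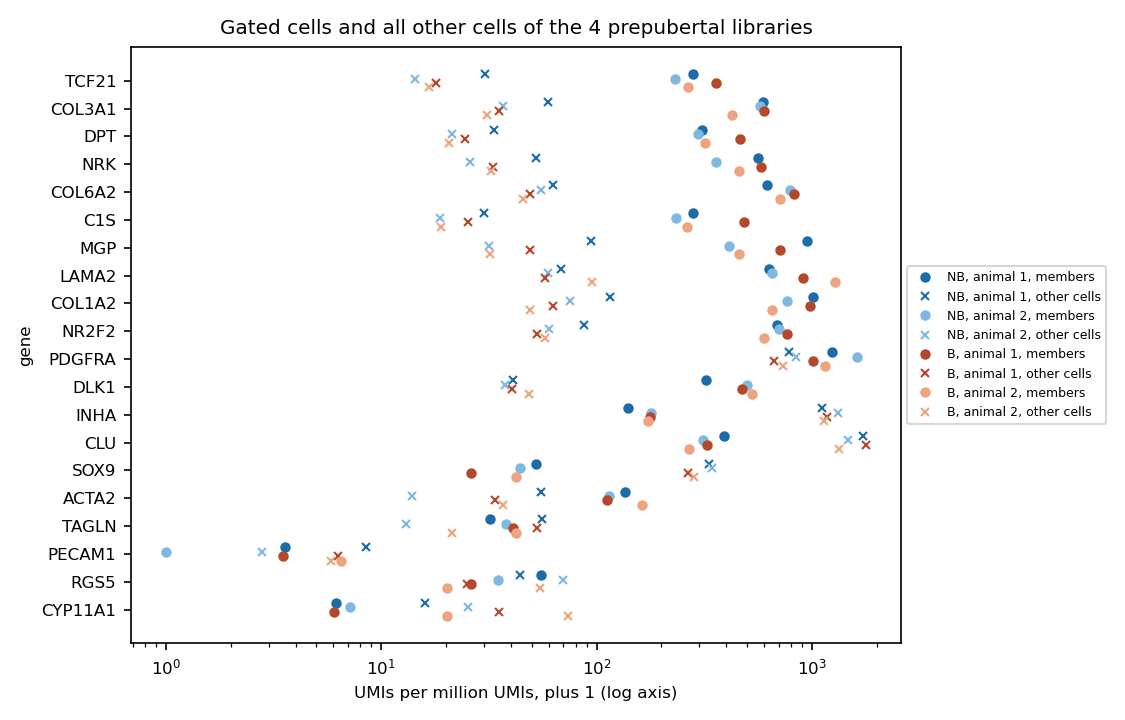
Levels of 20 genes (rows) as CPM plus 1 on a log axis, with circles for members and crosses for all other cells of each of the 4 prepubertal libraries (NB, non-breeding; B, breeding). TCF21 lies at 230.5 to 358.8 CPM in the members of every library, and the Sertoli genes INHA and CLU lie to the left of the other cells.

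Peritubular cells of the same libraries had many of these genes as well. In 295 cells of a peritubular gate (UMIs of both MYH11 and ACTA2, and none of AMH, EMCN or VWF), the mean levels were 178.2 CPM for TCF21, 671.4 CPM for COL1A2, 1306 CPM for PDGFRA and 434.3 CPM for DLK1, against means of 282.8, 851.9, 1255 and 454.7 CPM in the members. IGF2 averaged 2428 CPM there and C7 384.5 CPM. RSPO3, which encodes a secreted enhancer of Wnt signalling, separated the classes more widely, with 56.6, 67.6, 52.7 and 63.2 CPM in the members and a mean of 13.5 CPM in the peritubular gate. In 106 endothelial cells (VWF or EMCN with PECAM1 or CDH5, and no AMH or MYH11), TCF21 averaged 9.75 CPM and COL1A2 23.5 CPM, although 5 of these cells only came from non-breeding animal 2.

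Clustering of all gated cells, of every age, split the members into 3 groups named here by number. Cluster 1 held 696 members and cluster 4 held 348, and cluster 8 held 63. Cluster 1 was led by ICAM1, NR4A3, NR4A2, IRF1, NR4A1, GADD45B and ZFP36, many of which are switched on soon after a stimulus. Cluster 4 was led by ADH1B (an alcohol and retinol dehydrogenase), IGFBP3 (a carrier of insulin-like growth factors), CFD (complement factor D), HPGD (which inactivates prostaglandins), ANGPT1 and CXCL12. Cluster 8 was led by ERBB4, TRPM3, ADGRL3 and FSHR, and is left unnamed. Leydig markers summed to 710.4 CPM in cluster 8, 124.8 CPM in cluster 1 and 100.7 CPM in cluster 4, and Sertoli markers to 772.2, 567.4 and 945.7 CPM. The Leydig sums rested on 69, 119 and 36 UMIs with the libraries pooled. The Leydig marker CYP17A1 was uneven in cluster 8, at 818.7 CPM in breeding animal 1, 155.1 CPM in breeding animal 2 and 41.4 CPM in non-breeding animal 1.

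The split followed the animal more than the season. In animal 1, cluster 4 made up 53.8% (non-breeding) and 46.6% (breeding) of the members, and cluster 1 made up 26.1% and 47.9%. In animal 2, cluster 4 made up 14.0% and 7.38%, and cluster 1 85.5% and 87.4%. Cluster 8 made up 12.4% and 4.96% in animal 1 and 0.483% and 4.62% in animal 2. Median UMIs per cell were 1223 in cluster 1 and 877 in cluster 4, and the part of depth in the split was not tested. With 2 animals the difference between them is a description and has no test.

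**Figure D2:**
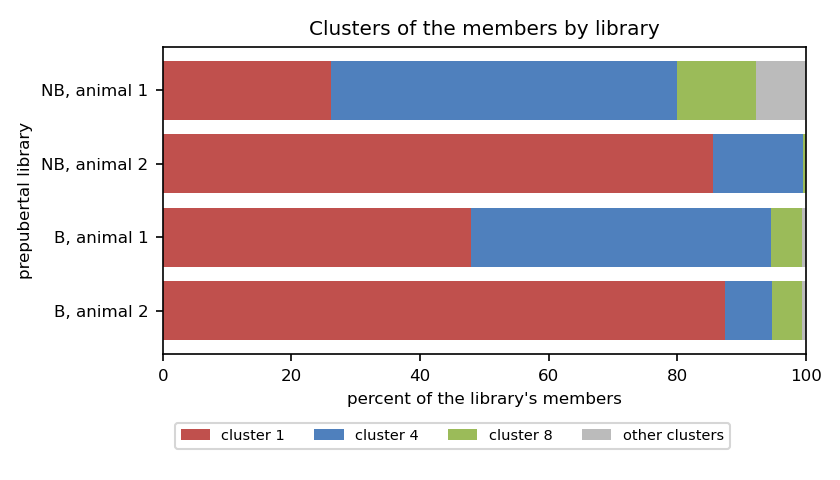
Percent of each prepubertal library's members (bars, 4 libraries) that fell in clusters 1, 4 and 8 or in another cluster. Cluster 4 covers 53.8% and 46.6% in the 2 libraries of animal 1 and 14.0% and 7.38% in those of animal 2.

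Within every library, cells of cluster 4 held more IGF2 than those of cluster 1. The levels in cluster 4 were 9128, 6150, 8002 and 7103 CPM, against 5516, 4022, 5547 and 4030 CPM in cluster 1. MGP likewise stood at 1152, 611.8, 1086 and 1113 CPM in cluster 4 and 668.8, 380.6, 530.9 and 417.8 CPM in cluster 1. FOS went the opposite way, with 3171, 4412, 10644 and 9342 CPM in cluster 1 and 2232, 1320, 2265 and 1802 CPM in cluster 4. NR4A3, an orphan nuclear receptor of the immediate early class, was 24.8, 34.3, 386.9 and 502.6 CPM in cluster 1 and 18.0, 0, 0 and 0 CPM in cluster 4. These genes also formed the clusters, and so the contrasts describe them only.

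Levels per animal are given as a description, with 2 libraries each and no test, and nothing is read from how many genes kept one order. Of 6998 genes with enough UMIs, 1938 (27.7%) were higher in animal 1 in both seasons and 2028 (29.0%) in animal 2, and 284 (4.06%) and 356 (5.09%) were so by more than 1.5 times. Genes that much higher in animal 2 included 7 of 17 immediate early genes, 2 of 21 collagen genes (COL6A3 and COL16A1), 2 of 21 receptors (ESR1 and THRB) and 2 of 20 stromal transcription factors (GATA4 and MEOX2), with 0 in animal 1 for each of these lists. IL1RAPL1, a synaptic adhesion gene, had this order at 308.9, 682.3, 409 and 832.9 CPM. Higher in animal 1 were 2 of 11 IGF genes, and IGFBP3 was one of them, at 584.4, 166, 737.7 and 211.6 CPM, so that the libraries of animal 1 did not overlap with those of animal 2. IGFBP6, a binding protein with preference for IGF2, was 728.6, 374.9, 702.6 and 310.6 CPM. By the same measure of more than 1.5 times in both seasons, 4 of 20 proteoglycan and matrix glycoprotein genes (LUM, FBLN1, FBLN5 and MGP) were higher in animal 1 and 1 (MFAP4) in animal 2, and 2 of 12 matrix turnover genes (ADAMTS5 and SERPINF1) were higher in animal 1. Also higher in animal 1 were 2 of 8 niche signals (CXCL12 and ANGPT1, with CSF1 higher in animal 2), 1 of 9 complement genes (CFD, with CD46 higher in animal 2), 1 of 7 imprinted genes (MEST) and 3 of 8 steroidogenesis genes (CYP17A1, POR and CYB5A). CYP17A1, the enzyme that leads from progestins to androgens, stood at 41.2, 3.07, 55.2 and 19.2 CPM over the members and at 41.4 CPM (non-breeding animal 1), 818.7 CPM (breeding animal 1) and 155.1 CPM (breeding animal 2) in cells of cluster 8, of which these libraries had 29, 18 and 15. The order of the clusters was not the same in every library, since cells of cluster 1 were at 107.3, 3.43, 0 and 9.42 CPM and cells of cluster 4 between 0 and 53.0 CPM.

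The share of members among filtered cells was higher in the breeding season as the gate was drawn. It was 2.24% (95% exact binomial interval 1.96 to 2.54) and 1.83% (1.59 to 2.09) in the non-breeding libraries, and 5.03% (4.54 to 5.56) and 3.28% (2.94 to 3.65) in the breeding libraries, where the intervals cover counting error only. The groups did not overlap, and the difference on the log2 scale was 1.01, with 1.17 in animal 1 and 0.85 in animal 2. An exact two-sided permutation test over the 4 libraries gave p = 0.333, the smallest that 2 against 2 allows. The order was lost when each cell was first thinned to 1000 UMIs and shallower cells dropped. The shares were then 3.27, 2.48, 3.27 and 1.95%, with a log2 difference of -0.17. Thinning also let in cells whose UMIs of AMH, EMCN, VWF or MYH11 were lost. The thinned gate took 299, 272, 198 and 166 cells. Of the members as drawn, 177, 178, 166 and 152 had at least 1000 UMIs, out of 9141, 10975, 6052 and 8506 such cells. The part of these added cells in the lost order was not tested. No season effect on the share is read from these data.

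For gene levels, UMIs were summed over the members of each library and the breeding libraries were compared with the non-breeding ones by edgeR's quasi-likelihood test, with an adjusted p (Benjamini-Hochberg) under 0.05 as the threshold. Of 6998 genes tested, 0 passed (0%). Without adjustment, 409 genes (5.84%) had p under 0.05, and DESeq2's adjusted p called 3 genes in each direction, 6 in all. With the animal as a block, which the sampling of both testes of each monkey allows, edgeR called 17 genes (0.243%), of which 14 were higher (0.200%) and 3 lower (0.0429%) in the breeding season. In 4 libraries, season and animal together leave little to measure the spread of a single gene. The calls with the block thus lean on the spread estimated across genes. The adjusted p-values of the season genes that follow are given first without and then with the animal block.

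The 14 included NR4A3, FOS and JUN of the immediate early response. Such transcripts appear quickly after many stimuli, among them tissue handling. NR4A3 was at 15.4, 30.7, 223.3 and 470 CPM, so that both breeding libraries lay above both non-breeding ones. Its log2 difference, breeding minus non-breeding, was 3.86 (SE 0.49), with an adjusted p of 0.140 without the block and 0.00167 with it. FOS, a subunit of the AP-1 factor, stood at 2369, 4121, 7006 and 8697 CPM, a log2 difference of 1.22 (SE 0.25) with adjusted p-values of 0.456 and 0.0116. JUN, its partner in AP-1, was at 1908, 3156, 4519 and 5852 CPM, again without overlap, with adjusted p-values of 0.655 and 0.0299.

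The rest of the immediate early list leaned the same way. Of the list's 17 tested genes, 16 had a log2 difference above 0, with a median of 0.95 beside -0.01 over all genes tested, and 3 were called with the block. In 11 of the 17, both breeding libraries lay above both non-breeding ones, where 20.9% of all genes tested had that order. The summed level of the list was 7471, 14411, 19209 and 25565 CPM in the members. In the other cells of the same libraries it was 3561, 7975, 10194 and 7481 CPM, also lowest in non-breeding animal 1 but not ordered by season, and the part of a library-wide state in the members' difference was not tested. NR4A3 in the other cells was 11.1, 26.6, 149.5 and 236.1 CPM. Of the 14 genes called higher with the block, 11 had both breeding libraries above both non-breeding ones in the other cells as well. Of all genes tested, 17.1% had that order. The seasonal order of these 11 genes was thus not limited to the members. FOS, JUN and ZC3HAV1 lacked it in the other cells, where FOS was at 890.4, 2708, 3967 and 2573 CPM. JUN was at 755.7, 1377, 1516 and 1080 CPM there, and ZC3HAV1 at 52.0, 84.2, 75.2 and 160.3 CPM.

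Several regulators outside that list took the same order. IRF1, a transcription factor of the interferon response, was at 30.9, 73.8, 263.5 and 398.6 CPM, with adjusted p-values of 0.151 and 0.00646, and at 14.2, 45.6, 47.3 and 48.2 CPM in the other cells. NFATC2, a calcium-dependent factor, was at 7.72, 21.5, 117.9 and 148.4 CPM, with 0.148 and 0.0146, and at 3.41, 6.61, 15.4 and 10.2 CPM in the other cells. GADD45B, a stress-induced gene, was at 468.6, 906.6, 1588 and 2292 CPM and was called with the block only (adjusted p 0.504 and 0.0122), with 253.8, 547.1, 845.1 and 766.2 CPM in the other cells. HES1, the usual readout of Notch signalling, was at 85.0, 138.3, 245.9 and 439.8 CPM and passed with the block only (0.504 and 0.0299), while in the other cells it was at 75.2, 169.8, 317.2 and 285.2 CPM. CD46, a membrane regulator of complement, was at 108.1, 162.9, 283.5 and 500.3 CPM (0.504 and 0.0398), with 113.3, 100.6, 177.2 and 165.9 CPM in the other cells. RGS16, CSRNP1, MAFF, ANKRD42, DDX58 and ZC3HAV1 completed the 14. RGS16 damps G protein signals, and DDX58 and ZC3HAV1 sense viral RNA. Not every cluster had this order. In cluster 4 GADD45B was at 390.1, 386.4, 248.5 and 265 CPM and JUN at 2274, 1063, 1960 and 1113 CPM, while ZC3HAV1 kept the order at 30.0, 32.2, 35.5 and 106 CPM. In cluster 1 GADD45B was at 759.6, 970.3, 2564 and 2456 CPM. The part of the cluster shares in the season differences was not tested.

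**Figure D3:**
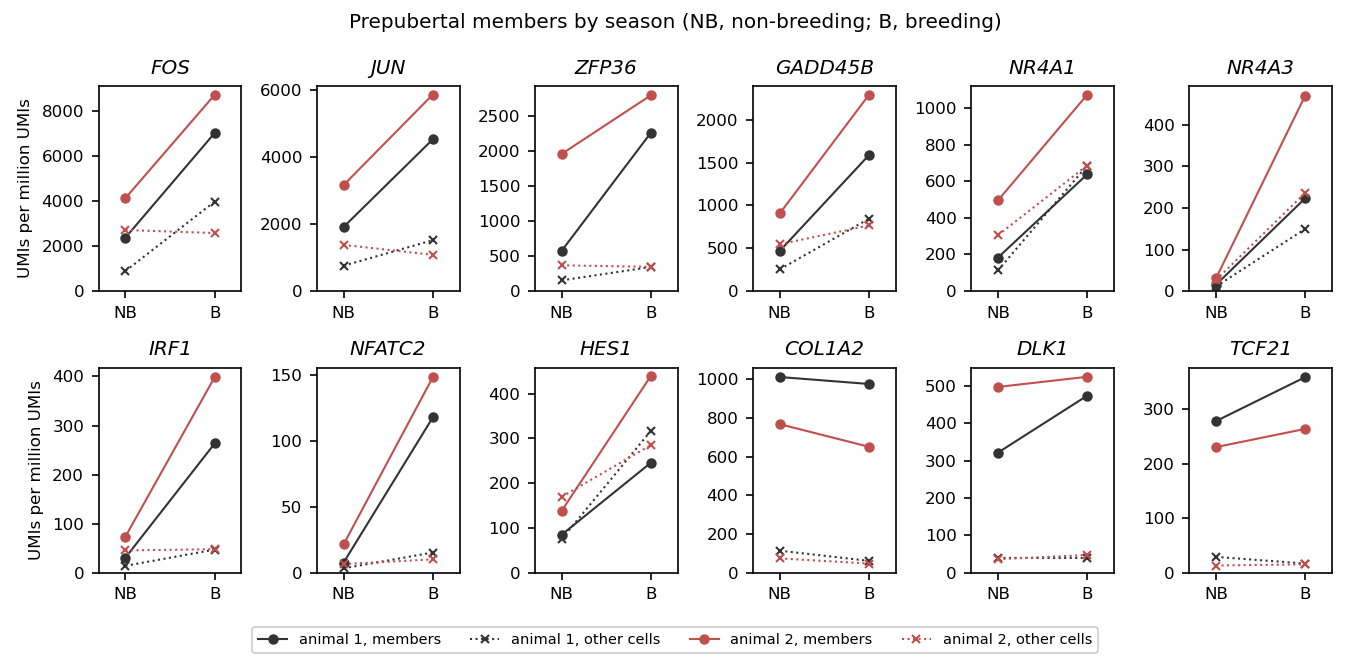
Levels of 12 genes in CPM (y axis, from 0) in the non-breeding (NB) and breeding (B) library of each prepubertal animal, with solid lines for members and dotted lines for the other cells. NR4A3 goes from 15.4 to 223.3 CPM in animal 1 and from 30.7 to 470 CPM in animal 2, while the seasons overlap for COL1A2, which is lower in the breeding library of both animals, and for TCF21, which is higher in both.

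Structural genes of the stroma gave no call, though some had the same order. COL1A2 was at 1012, 768.3, 976.1 and 651.4 CPM, with more in animal 1 in both seasons, and DLK1 at 321.8, 497.9, 474.3 and 525 CPM. The medians of the collagen, proteoglycan and IGF lists were 0.08, 0.08 and 0.15, and no gene of these lists was called with or without the block. Both breeding libraries lay above both non-breeding ones in 7 of 21 collagen, 5 of 20 proteoglycan, 10 of 21 hormone and growth factor receptor and 9 of 20 stromal transcription factor genes, beside the 20.9% of all genes tested. EBF1, a transcription factor of stromal progenitors, was at 347.6, 399.5, 820.5 and 555.2 CPM (log2 difference 0.83, adjusted p 0.808 and 0.304), and LAMA2 at 633.3, 648.5, 905.9 and 1273 CPM (0.71, adjusted p 0.810 and 0.304), neither past the threshold although their seasons did not overlap. All 9 tested complement genes had differences above 0, with a median of 0.65, beside 3438 of all 6998 genes tested. Only CD46 was called, with the block. Other lists leaned the other way, with 1 of 6 Wnt genes and 2 of 5 PDGF genes above 0.

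Among genes with lower values in the breeding season, the lowest unadjusted p of those with a symbol belonged to the mitochondrial gene ND2 at 1053, 820.6, 446.7 and 423.3 CPM (adjusted p 0.456 and 0.0572) and the ribosomal protein gene RPL27A at 1815, 1955, 1092 and 923.6 CPM (adjusted p 0.479 and 0.0815), neither of which passed the threshold. Ribosomal protein genes had a median of -0.27 over 72 genes, and 29 of them were lower without overlap, where 14.7% of all genes tested were. They took 15.3, 17.3, 14.8 and 13.7% of the members' UMIs. MAP3K21, RSBN1 and ZNF322 followed, and ZNF322, a zinc finger factor, stood at 79.8, 73.8, 22.6 and 35.7 CPM without passing (adjusted p 0.660 and 0.237).

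To see how the members' genes stood later in life, the same gate was applied to the older libraries and UMIs were summed per animal over both seasons. It kept 586 adult and 798 aged cells, with 0 from the breeding library of adult animal 2, which had 117 filtered barcodes. The non-breeding and breeding libraries held 193935 and 211365 UMIs of such cells in adult animal 1, and 145927 and 65366 in aged animal 2. Levels of a few CPM in these animals therefore rest on very few UMIs, also where a log2 difference and its SE are given. These older cells were not shown to be the same cell type. The members lay in clusters 1, 4 and 8 and the older cells mostly in others. Cluster 2, with 511 cells, was led by HBE1, HBA, ECRG4 and MAF, and cluster 3, with 453, by CST9L, GAGE10 and the Sertoli gene FATE1. Cluster 7 had 96 cells from non-breeding aged animal 1, led by SEMA3C, CCDC80 and EBF2. Germ cell genes led clusters 5 and 6, and immune genes such as GZMB and PTPRC led cluster 9, and 1 library, non-breeding aged animal 1, gave 600 of the aged cells.

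RNA of spermatids was abundant in the older cells. PRM1, PRM2 and TNP1 summed to 1562 to 68445 CPM in the older gated cells and 5045 to 101885 CPM in the other cells of those libraries. Peritubular markers stood at 279.9 to 1071 CPM in the older gated cells, above the 166 to 222.6 CPM of the members, erythroid markers at 0 to 3654 CPM and T and NK markers at 0 to 250.6 CPM, and their part in the age differences was not tested. The mesenchymal markers were at 2261 to 4311 CPM, and all 8 of them were higher in gated than in other cells of each of the 7 older libraries. Sertoli markers summed to 1259 CPM in the older cells of cluster 3, against 4400 CPM of mesenchymal markers. The comparison is therefore between barcodes passing the same gate, and the cells of clusters 5, 6 and 9 were also left out in a separate fit.

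The share of gated cells per animal, as the plain mean of its 2 libraries, was 3.64 and 2.55% before puberty, 1.36 and 1.61% in adults and 2.68 and 0.605% in aged monkeys. The value of adult animal 2 averages 3.22% of 10298 barcodes with 0 of 117, and without that small library the animal is at 3.22% and lies above prepubertal animal 2. The log2 difference in adults was -1.04 with the small library (exact permutation p = 0.333) and -0.54 without it (exact permutation p = 0.667), so that at the gate as drawn the order of adult and prepubertal animals rests on 117 barcodes. Aged animals overlapped with the prepubertal ones (-1.26, exact permutation p = 0.667). Here 0.333 is again the smallest p that 2 against 2 allows, and the share depends on how many germ cells a library holds and on the depth gap described above. At 1000 UMIs per cell the differences were -1.93 in adults (-1.43 without the small library) and -2.22 in aged animals. Adults were then at 0.803 and 1.24% without the small library and aged animals at 1.92 and 0.174%, all below the 3.27 and 2.21% of the prepubertal animals. In the prepubertal non-breeding libraries the thinned gate took 299 and 272 cells, against 177 and 178 by the gate as drawn at that depth. It took fewer in non-breeding aged animal 1 (393 against 556) and non-breeding adult animal 2 (108 against 157). In non-breeding adult animal 1 it took more (108 against 87). This order is therefore given for the thinned gate only. With all 4 gate genes required the shares were 1.99 and 1.15% before puberty, 0.183 and 0.384% in adults and 0.364 and 0.0545% in aged animals (log2 differences of -2.51 and -3.43). With DCN and COL1A1 alone they were 2.93 and 1.86%, 1.54 and 1.41%, and 2.51 and 0.530%, with differences of -0.66 and -1.02 and with aged animal 1 above prepubertal animal 2. In both of these gates the value of adult animal 2 again averages in 0 of 117 barcodes. Its other library had 291 of 10298 barcodes with DCN and COL1A1 alone and 79 with all 4 genes. Without the small library this animal lies above prepubertal animal 2 with DCN and COL1A1 alone, and below it with all 4 genes. The gate genes IGF2 and C7 were themselves lower in the older gated cells, with IGF2 at 6383 and 4163 CPM per animal before puberty and 1181 to 2181 CPM later, and C7 at 1428 and 1458 CPM and then 185 to 454.3 CPM, and their part in the shares was not tested.

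Against the prepubertal animals, edgeR called 3418 of 10433 genes (32.8%) in adults, 2582 higher (24.7%) and 836 lower (8.01%). In aged animals it called 3898 (37.4%), 2768 higher (26.5%) and 1130 lower (10.8%). In the non-breeding libraries alone 0 genes passed in either contrast, with 1973 and 2807 at an unadjusted p under 0.05, so that no age call given below holds there. Without regard to a test, both adult animals lay below both prepubertal ones in 38.3% of genes and above them in 35.1%, and both aged animals in 45.1 and 32.1%. Both contrasts share the same 2 prepubertal animals, so their agreement is not counted. Among the genes lower in adults, 470 (56.2%) were higher in members than in other cells in all 4 prepubertal libraries, and 531 (47.0%) among those lower in aged animals, where 21.4% of all tested genes were. Of the genes called higher, 46 (1.78%) and 76 (2.75%) were higher in gated than in other cells of all 7 older libraries, where 14.6% of all tested genes were. The counts of the gated cells enter both the calls and these orders. The shares are therefore a description, and no enrichment is read from them.

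The split between higher and lower calls depended on the scaling. When the scaling factors were taken from the 799 genes that were higher in gated than in other cells of every library, the median over all genes rose by 0.72 (adult) and 0.67 (aged) on the log2 scale, and falls went from 24.5 to 3.97% of the calls in adults and from 29.0 to 6.64% in aged animals. With it 4259 genes (40.8%) passed in adults, 4090 higher (39.2%) and 169 lower (1.62%), and 4172 (40.0%) in aged animals, 3895 higher (37.3%) and 277 lower (2.66%). This second scaling, called own-gene scaling below, was chosen after seeing the data, and calls of falls named below are given under it as well. When the cells of clusters 5, 6 and 9 were left out, 1719 genes passed in adults and 2745 in aged animals. With the cells of cluster 3 left out too, the aged contrast called 3193 genes. The adult contrast was not run that way, and adult animal 2 would have kept under 20 cells. Cluster 3 held 96.9 and 76.2% of the gated cells in the non-breeding libraries of adult animals 1 and 2. In the breeding library of adult animal 1 it held 2.40%. The part of cluster 3 in the adult calls was thus not tested.

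DLK1, a membrane relative of the Notch ligands made by fetal and juvenile stroma, fell in both contrasts. Per animal it was at 399 and 512.2 CPM before puberty, 29.6 and 24.8 CPM in adults and 9.35 and 4.73 CPM in aged monkeys, with no overlap between ages. The log2 difference was -3.87 (SE 0.36, adjusted p 8.60e-05) in adults and -5.41 (SE 0.42, adjusted p 3.13e-05) in aged animals, and -3.15 and -4.73 with own-gene scaling (adjusted p 3.02e-04 and 8.27e-05). RefSeq places DLK1, an imprinted gene, at chr7:162943302-162951728 on the plus strand of Mmul_10.

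GPC3, a cell-surface proteoglycan that restrains growth, fell from 54.6 and 72.5 CPM to 2.47 and 0 CPM in adults and 1.56 and 0 CPM in aged animals. Its log2 differences were -5.50 and -5.11, and adjusted p-values with own-gene scaling were 0.00175 and 0.00133. TCF21 went from 319 and 248.1 CPM to 46.9 and 37.2 CPM and to 38.2 and 37.9 CPM, with log2 differences of -2.57 and -2.58 and adjusted p-values with own-gene scaling of 0.00192 and 0.00163. It was still higher in gated than in other cells of all 7 older libraries.

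Other imprinted growth genes followed in part. Of 8 tested without IGF2, 4 were lower in adults and 5 lower and 1 higher in aged animals, with medians of -1.02 and -1.37, beside falls of 8.01% and 10.8% over all genes. With own-gene scaling 2 rose and 2 fell in adults, and 1 rose and 4 fell in aged animals, with medians of -0.31 and -0.70, beside falls of 1.62% and 2.66%. PEG3, a zinc finger gene expressed from the paternal copy, was at 460 and 547 CPM before puberty, 148 and 113.4 CPM in adults and 91.2 and 94.7 CPM in aged animals, without overlap. It fell by 1.75 and 2.11 on the log2 scale, and stayed called with own-gene scaling (adjusted p 0.0185 and 0.00412). MEST fell by 1.68 and 2.66, and only the aged difference passed with own-gene scaling (0.0212). IGF2 itself went from members at 4107 to 6552 CPM to 2181 and 2158 CPM in adult and 1181 and 1633 CPM in aged animals, given without a test as it chose the cells.

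**Figure D4:**
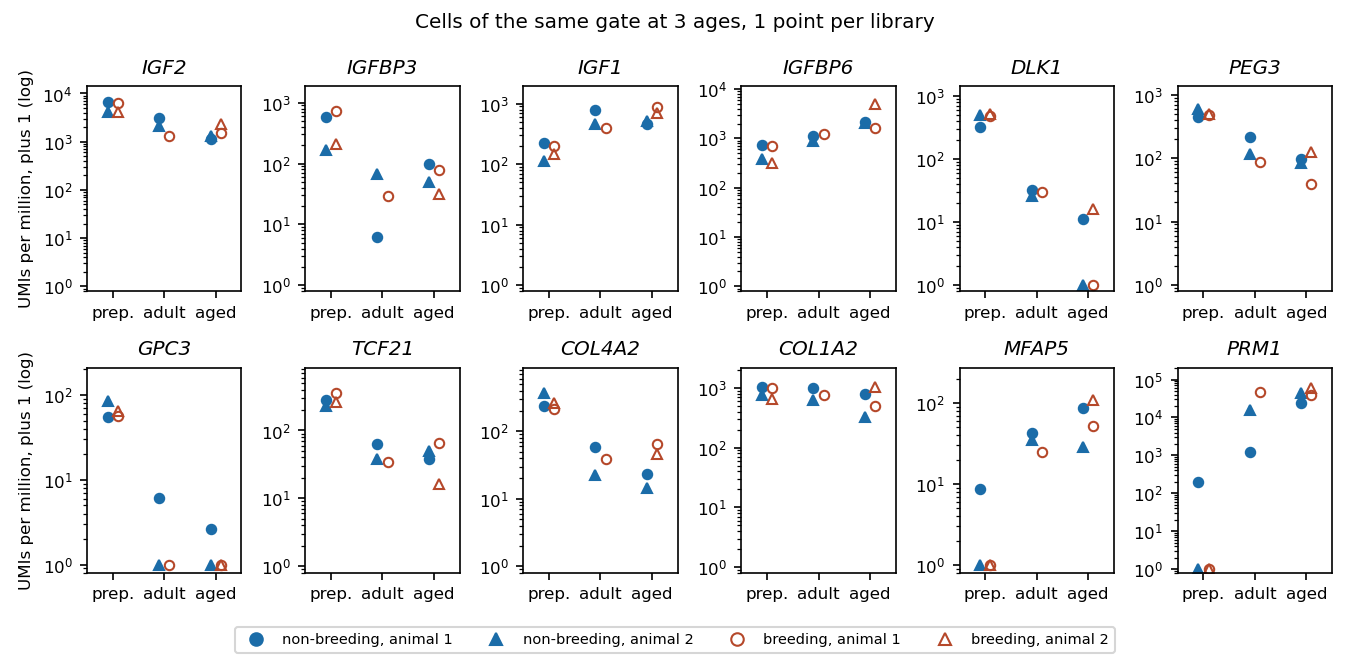
Levels of 12 genes as CPM plus 1 (log axis) in cells of the same gate at 3 ages, with 1 point per library (circles, animal 1; triangles, animal 2; filled, non-breeding; open, breeding). DLK1 and GPC3 lie lower in every adult and aged library than in the prepubertal ones, IGF1 lies higher, and the spermatid gene PRM1 is abundant in the older libraries.

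The insulin-like growth factor axis changed in both directions. Of 12 genes tested besides IGF2, 1 rose and 4 fell in adults, and 3 rose and 4 fell in aged animals, with medians of -0.85 and -0.99, where 24.7% of all genes rose and 8.01% fell in adults and 26.5% rose and 10.8% fell in aged animals. With own-gene scaling 4 rose and 3 fell in adults, and 4 rose and 0 fell in aged animals, with medians of -0.15 and -0.31, where all genes had 39.2 and 37.3% up and 1.62 and 2.66% down. IGF1, the postnatal ligand, rose from 212.2 and 130.6 CPM to 574.9 and 460.6 CPM in adults and 486.3 and 563.2 CPM in aged monkeys, so that no older animal overlapped with the young ones. Its log2 differences were 1.78 (SE 0.36, adjusted p 0.00354) and 1.93 (SE 0.36, adjusted p 0.00193), and it was higher in gated than in other cells of all 7 older libraries. IGFBP6 rose in aged animals, from 715.4 and 341 CPM to 2105 and 2991 CPM (2.59, adjusted p 0.00103), and did not pass in adults (1.13, adjusted p 0.0599) except with own-gene scaling (0.00504) and without clusters 5, 6 and 9 (0.0188).

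IGFBP3 fell from 662.1 and 190.1 CPM to 17.3 and 67.3 CPM in adults (-3.09, adjusted p 0.00594, and 0.0353 with own-gene scaling). In aged animals it was at 94.3 and 42.6 CPM, and the fall of 2.20 passed in the first fit (adjusted p 0.0218) and not with own-gene scaling (0.125). IGFBP5 fell in adults from 626.5 and 359.8 CPM to 81.4 and 78.0 CPM (adjusted p 0.00154 and 0.0142) and was not called in aged animals, at 301.6 and 146.7 CPM (adjusted p 0.144). IGF1R, the receptor for both ligands, was lower by the first scaling only (own-gene adjusted p 0.245 and 0.141).

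The fibrillar collagen genes COL1A2 and COL3A1 gave no call, and the basement membrane gene COL4A2 fell. COL1A2 was at 993.7 and 706.6 CPM before puberty, 873.4 and 627.2 CPM in adults and 756.7 and 544.3 CPM in aged animals, with overlap and no call (adjusted p 0.986 and 0.911). COL3A1 was not called either (adjusted p 0.745 and 0.0995). COL4A2, a chain of type IV collagen, fell from 223.7 and 312 CPM to 46.9 and 21.3 CPM and to 24.9 and 23.7 CPM, by 2.81 and 3.11 on the log2 scale, with own-gene adjusted p-values of 0.00220 and 0.00115. COL15A1, a collagen of the zone next to basement membranes, fell from 247.8 and 298.9 CPM to 76.5 and 53.1 CPM and to 25.7 and 42.6 CPM (own-gene adjusted p 0.0167 and 0.00125). Over the list, 1 of 22 collagen genes rose and 5 fell in each contrast (medians -0.74 and -0.52), against 24.7 and 26.5% up and 8.01 and 10.8% down over all genes. With own-gene scaling 2 rose and 2 fell in adults, and 3 rose and 4 fell in aged animals (medians -0.03 and 0.13), against 39.2 and 37.3% up and 1.62 and 2.66% down.

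Of 26 proteoglycan and matrix glycoprotein genes, 3 rose and 3 fell in adults, and 10 rose and 4 fell in aged animals, and the difference between the ages was not tested. Over all genes 24.7 and 26.5% rose and 8.01 and 10.8% fell. With own-gene scaling 7 rose and 2 fell in adults, and 12 rose and 3 fell in aged animals, where 39.2 and 37.3% of all genes rose. FBLN5, which guides elastic fibre assembly, rose from 54.6 and 30.5 CPM to 118.4 and 101 CPM in adults (1.54, adjusted p 0.0143) and to 130.9 and 208.2 CPM in aged animals (2.25, adjusted p 0.00149). MFAP5, a microfibril protein, rose from 3.81 and 0 CPM to 32.1 and 33.7 CPM and to 83.4 and 52.1 CPM (adjusted p 0.00164 and 1.72e-04). MGP rose by 1.36 and 1.44 (adjusted p 0.0335 and 0.0238). FN1, the gene of fibronectin, rose in aged animals from 29.2 and 23.2 CPM to 100.5 and 66.3 CPM (2.05, adjusted p 0.00120). BGN, a relative of decorin, fell in both contrasts, from 181.7 and 181.4 CPM to 59.2 and 17.7 CPM and to 28.1 and 52.1 CPM (own-gene adjusted p 0.0326 and 0.0400).

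Among enzymes of matrix turnover, MMP2, a gelatinase that cleaves type IV collagen, fell in adults from 443.5 and 396.1 CPM to 91.3 and 65.6 CPM (-2.23, own-gene adjusted p 0.00463). In aged animals it was at 134.8 and 104.1 CPM, called by the first scaling (-1.46, adjusted p 0.00449) and not by the second (0.0696). Of the 12 genes of that list, 1 rose and 2 fell in adults and 2 rose and 2 fell in aged animals, against 3 up and 1 down in each contrast with own-gene scaling. Over all genes the rises were 24.7 and 26.5% (39.2 and 37.3% with own-gene scaling) and the falls 8.01 and 10.8% (1.62 and 2.66%).

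Several genes of signals to neighbouring cells fell. CXCL12, a chemokine that holds stem cells in their niche, was at 125.8 and 42.1 CPM before puberty, 9.87 and 7.09 CPM in adults and 5.46 and 9.47 CPM in aged animals, without overlap, with log2 differences of -3.14 and -3.44 (own-gene adjusted p 0.0180 and 0.0106). PTN, a heparin-binding growth factor, fell from 57.2 and 68.2 CPM to 14.8 and 7.09 CPM and to 4.68 and 4.73 CPM (own-gene adjusted p 0.0176 and 0.00248). RSPO3 fell from 54.6 and 65.3 CPM to 2.47 and 5.31 CPM and to 12.5 and 4.73 CPM (own-gene adjusted p 0.00496 and 0.0388). FGF7, an epithelial growth factor, and SLIT3, a guidance ligand, rose in aged animals, FGF7 from 6.35 and 4.35 CPM to 51.4 and 47.3 CPM (3.48, adjusted p 3.77e-04) and SLIT3 from 41.9 and 11.6 CPM to 136.4 and 118.3 CPM (2.55, adjusted p 0.00197). In all, 5 of 12 niche genes fell in adults with none up, and 3 rose and 2 fell in aged animals. With own-gene scaling 2 rose and 3 fell in adults, and 4 rose and 2 fell in aged animals. All genes had 24.7 and 26.5% up and 8.01 and 10.8% down by the first scaling, and 39.2 and 37.3% up and 1.62 and 2.66% down by the other.

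Of 24 hormone and growth factor receptors, 10 fell in adults and 11 in aged animals with none up, where 8.01 and 10.8% of all genes fell. With own-gene scaling 2 fell in adults and 1 rose in aged animals, where 1.62 and 2.66% of all genes fell. GHR, the growth hormone receptor, fell in adults from 136 and 137.8 CPM to 12.3 and 26.6 CPM under both scalings (adjusted p 0.00169 and 0.0216). In aged animals, at 42.9 and 14.2 CPM, it was called by the first scaling (adjusted p 0.00935) and not with own-gene scaling (0.132). ESR1, an oestrogen receptor, fell by the first scaling from 118.2 and 251 CPM to 44.4 and 60.2 CPM and to 61.6 and 52.1 CPM, and lost the call with own-gene scaling (adjusted p 0.155 and 0.268).

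Of 10 steroidogenic genes, 1 rose in adults, and 2 rose and 1 fell in aged animals, while own-gene scaling gave 5 up in adults and 3 up in aged animals with none down. Over all genes 24.7 and 26.5% rose, and 39.2 and 37.3% with own-gene scaling. STAR, which brings cholesterol into mitochondria, was at 62.3 and 60.9 CPM before puberty and between 37.9 and 79.0 CPM later (adjusted p 0.435 and 0.916), although its adult difference passed with own-gene scaling (0.0329). LHCGR, the receptor for luteinising hormone, rose from 15.2 and 5.80 CPM to 51.8 and 67.3 CPM and to 81.0 and 56.8 CPM (adjusted p 0.00174 and 5.62e-04), yet it was higher in gated than in other cells in 1 of the 7 older libraries, and without clusters 5, 6 and 9 its adult difference missed the threshold (adjusted p 0.177). INSL3 reached 6.23 CPM at most in any animal.

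The signalling lists are given beside rises of 24.7 and 26.5% and falls of 8.01 and 10.8% over all genes. In each contrast 2 of 5 PDGF genes fell. In the Notch list, 1 of 6 genes rose and 3 fell in adults, and 1 rose and 2 fell in aged animals. Of 9 Wnt genes, 2 fell in adults, and 2 rose and 2 fell in aged animals. Of 14 TGF beta and BMP genes, 1 rose and 4 fell in adults, and 2 rose and 2 fell in aged animals, and of 8 retinoid genes, 3 fell in adults and 2 in aged animals. With own-gene scaling the PDGF falls were 0 and 1, and the Notch list had 1 up and 2 down in adults and 2 up and 2 down in aged animals. Wnt then had 4 up and 1 down in adults and 4 up and 2 down in aged animals, the TGF beta and BMP list 2 up and 1 down and then 2 up and 2 down, and the retinoid list 2 up and 1 down in adults and no call in aged animals, beside 39.2 and 37.3% up and 1.62 and 2.66% down over all genes. No Hedgehog gene of 9 tested was called in either contrast, against 1 up in aged animals with own-gene scaling, and PTCH1, the receptor and target of that pathway, was at 82.6 and 111.7 CPM before puberty and 35.4 to 79.0 CPM later (adjusted p 0.293 and 0.152). PDGFRA was at 1125 and 1371 CPM and then at 416.9 to 747.8 CPM, without a call (adjusted p 0.139 and 0.120). In the Notch list HES1 fell from 166.5 and 297.4 CPM to 19.7 and 17.7 CPM and to 9.35 and 9.47 CPM (own-gene adjusted p 0.00113 and 3.91e-04), and HEY2 rose (2.32 and 2.21) but was lower in gated than in other cells of every older library. Of 23 stromal transcription factors, TCF21 among them, 7 fell in adults with none up, and 6 fell and 1 rose in aged animals, where 8.01 and 10.8% of all genes fell. With own-gene scaling 1 fell and 2 rose in each contrast, where 1.62 and 2.66% of all genes fell. NR2F2 and EBF1 were not called. NR2F2 was at 729.4 and 647.1 CPM and then 316.4 to 414.5 CPM (adjusted p 0.104 and 0.0709), and EBF1 at 587.1 and 481.7 CPM and then 402.3 to 547.7 CPM (adjusted p 0.844 and 0.961).

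Immediate early genes were also lower in the older cells. Of 17 tested, 12 fell in adults and 11 in aged animals with none up, with medians of -2.38 and -2.66, where 8.01 and 10.8% of all genes fell. With own-gene scaling 4 and 8 fell, where 1.62 and 2.66% of all genes did. NR4A3 fell from 120.7 and 262.6 CPM to 0 and 8.86 CPM and to 3.90 and 0 CPM (own-gene adjusted p 0.00266 and 0.00159). In the other cells of the older libraries the list summed to 221.1 to 1872 CPM, against 3561 to 10194 CPM before puberty, so that the same order held outside the gate, and its part in the members' difference was not tested. Ribosomal protein genes were lower in the first fit for 42 and 43 of 73 genes and for 5 and 8 with own-gene scaling.

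**Figure D5:**
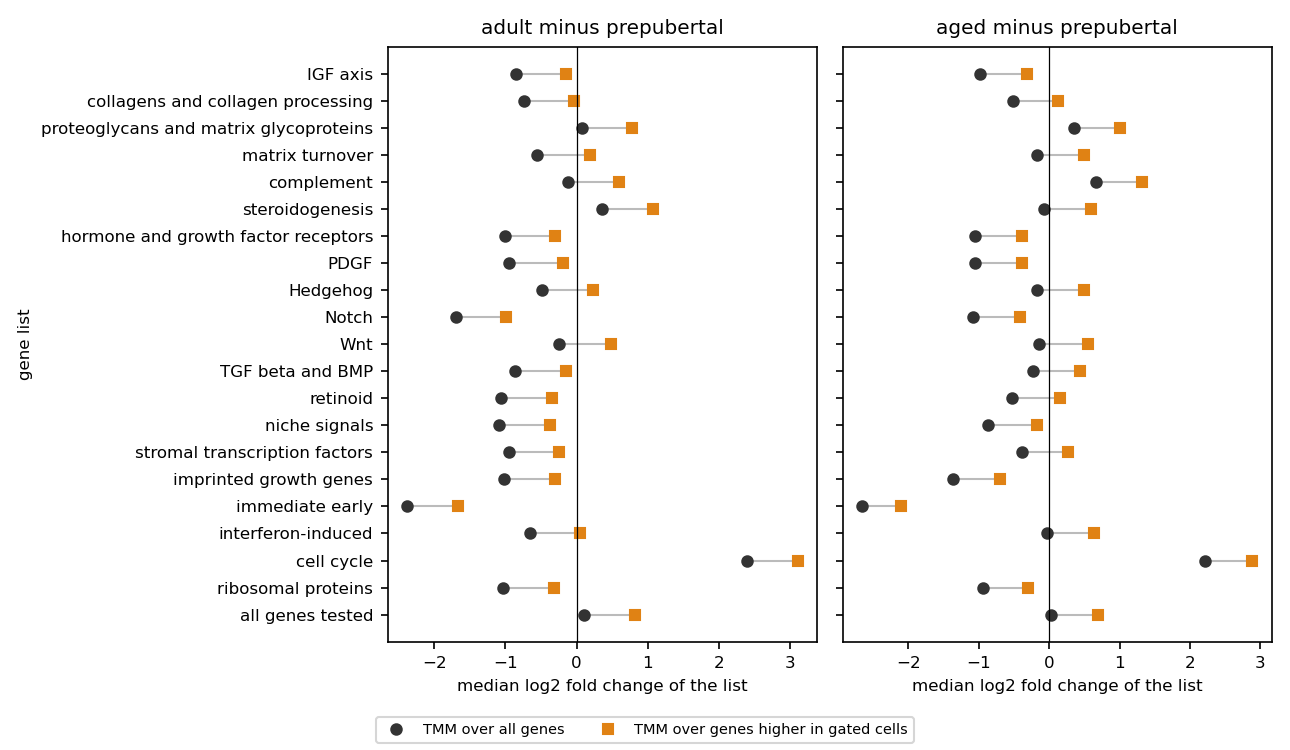
Median log2 fold change of 20 gene lists and of all genes tested (rows), for adult minus prepubertal and aged minus prepubertal gated cells, with circles for scaling over all genes and squares for own-gene scaling. The squares lie to the right of the circles by about the shift of all genes (0.72 and 0.67), and the immediate early list stays below 0 under both.

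The falls named next are the 10 with the most negative fitted log2 difference in each contrast among called genes whose animals did not overlap. For a gene at 0 UMIs in the older group that fitted value is no bound, and most of the bounds given below are smaller than the measured fall of DLK1, so that the 10 need not be the greatest measured falls. In adults COL9A3, a collagen of cartilage, went from 22.9 and 34.8 CPM to 0 in both animals, and IL20RA and TLCD5 were at 0 as well. With 3 UMIs as the limit for a count of 0 over the group, these are falls of at least 9.33-fold, 7.30-fold and 5.95-fold. COL9A3 was higher in members than in other cells in 2 of the 4 prepubertal libraries and TLCD5 in 1 of 4 (means of 18.7 and 16.5 CPM), and the other 8 genes in all 4. VLDLR, DUSP2, MMP16, EFNA5 and CNTN5 followed with GPC3 and NR4A3; EFNA5, an ephrin ligand, fell from 106.7 and 172.7 CPM to 4.93 and 3.54 CPM. All 10 stayed called as falls with own-gene scaling, with adjusted p from 8.10e-04 (EFNA5) to 0.0275 (TLCD5). In aged animals HAPLN1, which links hyaluronan to proteoglycans, stood out with members at 103, 101.4, 95.4 and 79.7 CPM in the 4 libraries and 0 in both aged animals, at least 47.1-fold lower, while adults were at 17.3 and 5.31 CPM.

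PLAC1, an X-linked gene best known from the placenta, was nearly constant in the members at 141.6, 147.5, 143 and 145.7 CPM. It was at 46.9 and 44.3 CPM in adults and 1.56 and 0 CPM in aged animals, a log2 difference of -6.29 (SE 0.54) for the latter (adjusted p 3.34e-05, and 1.49e-04 with own-gene scaling). IL1RAPL1 fell from 359.6 and 761.8 CPM to 7.01 and 4.73 CPM in aged animals. NR0B1, the orphan receptor DAX1 that represses steroidogenic genes, ITGA10, SLC25A29, FOXC2 and TLCD5 were at 0 in both aged animals, with falls of at least 9.17-fold (TLCD5) to at least 16.1-fold (NR0B1). Not all of these marked the members before puberty: SLC25A29 averaged 24.2 CPM in members and 76.3 CPM in the other cells and was higher in members of 0 of 4 libraries, and NR0B1 averaged 32.0 and 34.0 CPM and was higher in 1 of 4, as was TLCD5. RALYL (means of 112.6 and 107 CPM, higher in members of 2 of 4 libraries) and NECAB1 completed the 10, all of which stayed called as falls with own-gene scaling, with adjusted p from 1.49e-04 (PLAC1) to 0.0175 (TLCD5).

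The 10 genes with the greatest fitted rise in each contrast were genes of spermatids and other germ cells. FABP12, IQCF5, TEX37, TMEM210, PRSS2, C13orf46, SPACA3, SPACA7, TEX43 and TEX35 led in adults, each at 0 in the members, with FABP12 at least 141.2-fold higher. In aged animals TEX37, at least 233.1-fold higher, led with IQCF5, FABP12, PRSS2, C13orf46 and SPACA7 again and with ODF3L2, BPIFA3, ODF1 and TNP1. TNP1, a packing protein of spermatid chromatin, was at 8.90 and 0 CPM before puberty and at 2437 and 5641 CPM in aged animals. Of the 10 genes in adults, 8 were lower in gated than in other cells of every older library, and FABP12 was at 55.3 to 639 CPM in the other cells of the adult libraries. Of 11 cell cycle genes, 9 rose in adults and 7 rose and 1 fell in aged animals, next to the same germ cell RNA. Of all genes, 24.7 and 26.5% rose and 8.01 and 10.8% fell. With own-gene scaling 9 rose in adults and 8 in aged animals with none down, where 39.2 and 37.3% of all genes rose.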

How the data were processed

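The deposited matrices, 1 per library, hold raw UMI counts per gene and cell barcode, which the authors made with Cell Ranger 9.0.0 on Mmul_10 with filtered barcodes. The study's methods name DoubletFinder for its own analysis, without stating whether the deposited matrices precede that step. The 48 GEO samples fall into 6 groups of 8, and no label names a library. Libraries were assigned to age and season through their names in the study's library sheet, and to an animal through the number within the name. The sheet gives the age group of the youngest libraries as puberty, whereas the paper's text and the sample titles call that group prepubertal or prepuberty. Of 26530 features, 9920 had no symbol in the files; 643 were named from a reference table.

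Members and gene lists were chosen with earlier results of these data known. Barcodes were filtered and gated as given in the report. Scrublet's automatic threshold called under 0.5% of cells in the prepubertal libraries and so did not work there; 0.8% per 1000 cells was called in its place, as an alternative only. Gated cells of all ages were clustered with scanpy 1.11.5 (2000 variable genes, 20 components, 15 neighbours, Leiden resolution 0.5).

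UMIs were summed per library (season) or per animal (age, at least 20 cells) and tested with edgeR 4.0.16 quasi-likelihood, TMM factors, filterByExpr and Benjamini-Hochberg adjustment within each contrast in R 4.3.3; the gate genes stayed out of counts of calls. SE is the log2 difference over the root of its F value. DESeq2 1.42.0, other gates, scalings and left-out libraries were alternatives. On simulated counts, the season test recovered 44.7% of 4-fold and 1.16% of 2-fold changes (7022 genes), the adult test 44.4% and 1.09% (10134 genes). The simulation gave every gene the same assumed spread, which was not estimated from these data, and had no pairing by animal. Both testes of a monkey share its number: their deviations from the season means correlated at 0.276 over 7002 genes, and the pairing comes from the sampling of the same animal.

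The named genes were the 10 genes with the greatest fitted log2 rise and fall past the threshold without overlap between animals and with at least 10 UMIs in the higher group, the 5 lowest p-values per direction where none passed, the 20 leading genes and genes of the fixed lists. A count of 0 was read as at most 3 UMIs.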

Additional observations from a re-analysis of the deposited data

How the results depend on the processing

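The share of members by season reversed in direction at 1000 UMIs per cell (log2 difference -0.17 against 1.01), where thinning also let in cells with excluding UMIs. Without 1 library each the difference ranged from 0.70 to 1.32. Without 1 animal each, the adult share difference ranged from -1.29 to -0.78 (from -1.16 to 0.08, reversed without adult animal 1, when the 117-barcode breeding library of adult animal 2 was left out as well, a choice made after seeing the data) and the aged one from -2.33 to -0.19. The season comparison called 0 genes in its first fit and 3 with all 4 gate genes required, 5 with DCN and COL1A1 alone, 8 at 1000 UMIs per cell, 5 without members of older clusters, 5 without members with spermatid UMIs, 3 without shared barcodes, 6 with DESeq2, 161 without a filter on low counts (54 higher, 107 lower) and 17 with the animal as a block; the cause was not tested. Leaving out 1 library each gave 2 to 290 calls, with 290 without non-breeding animal 2, 31 without non-breeding animal 1, 14 without breeding animal 1 and 2 without breeding animal 2, and the lone library left is then assumed to vary like the others.

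The adult contrast (3418 calls) gave 2029 with all 4 gate genes, 1575 at 1000 UMIs, 1719 without clusters 5, 6 and 9, 2366 with DESeq2 and 0 in non-breeding libraries alone (1973 at an unadjusted p under 0.05). Without 1 animal it ranged from 1914 to 3055, the lowest without adult animal 2, and it was 2266 without prepubertal animal 2. The aged contrast (3898 calls) gave 1914, 2191, 2745 and 2663 under the first 4 of these, 0 in non-breeding libraries alone (2807 unadjusted) and 2313 in breeding libraries alone. Without 1 animal it ranged from 1901 to 3489, the lowest without aged animal 1, and without the non-breeding library of that animal it was 2926. Without predicted doublets the adult contrast gave 2293 calls (1875 higher, 418 lower) and the aged contrast 2857 (2199 higher, 658 lower). Such doublets were 24 of the 125 gated cells of breeding adult animal 1 and 76 of the 600 of non-breeding aged animal 1. Over the single genes followed, 0 reversed in any alternative, 69 values lost and 52 gained their call. In simulation 2-fold differences were rarely recovered. Depth and the number of animals were not varied there, so the part of depth was not tested. With 2 animals per age, age and the individual cannot be separated. Free RNA was not removed.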

Other observations

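A small set of genes rose in the older gated cells while staying above the other cells of all 7 older libraries, and so differed from the germ cell genes that led the rises. They were chosen after their values were seen. CLEC3B, which encodes the plasminogen-binding protein tetranectin, was at 57.2 and 16.0 CPM in the prepubertal animals, 690.8 and 1141 CPM in adults and 1526 and 809.3 CPM in aged monkeys, with log2 differences of 4.81 (edgeR adjusted p 2.77e-04) and 5.29 (1.39e-04). MAF, a transcription factor, went from 5.08 and 4.35 CPM to 83.9 and 79.7 CPM and to 142.6 and 94.7 CPM. The neighbouring type IV collagen genes COL4A3 and COL4A4 rose together, COL4A3 from 2.54 and 2.90 CPM to 66.6 and 39.0 CPM and to 30.4 and 71.0 CPM, and COL4A4 from 3.81 and 2.90 CPM to 71.6 and 42.5 CPM and to 59.2 and 151.4 CPM. Their relative COL4A2 fell over the same animals. ECRG4, a secreted peptide precursor, stood at 89.0 and 31.9 CPM, 315.8 and 186 CPM, and 757.5 and 1600 CPM. EBF2 is given beside this set, as it did not lie above the other cells of every older library. EBF2 had no UMI in the members, was at 2.47 and 10.6 CPM in adults and at 98.2 and 23.7 CPM in aged animals, whose mean was at least 30.0-fold higher. It was among the genes leading cluster 7, whose 96 cells all came from 1 library of aged animal 1, with 508.2 CPM there and 13.3 CPM in the other gated cells.

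Beside the 14 genes called higher with the animal block, 3 features without a symbol were called lower in the breeding season. ENSMMUG00000055690 was at 13630, 15867, 4446 and 2094 CPM in the members, and at 5872, 7683, 1380 and 869.4 CPM in the other cells of the same libraries, so that both sets of cells had the same order. Its edgeR adjusted p was 0.140 without and 0.00646 with the block. ENSMMUG00000062077 was at 2750, 2812, 705.1 and 266.6 CPM. In the gated adult cells ENSMMUG00000055690 was at 23209 and 5228 CPM in the non-breeding and 2191 CPM in the breeding library with such cells, and in the aged cells at 4189 and 7298 CPM against 2325 and 5217 CPM, lower in the breeding library of both animals although the seasons overlapped.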
